A study of Homo sapiens with 12 samples.

Results

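The ER chaperone and unfolded protein response genes are 34 genes picked by symbol for their work in protein folding, stress sensing and degradation at the endoplasmic reticulum (ER). They fall into 10 chaperones and their helpers, 6 genes of disulfide formation, 2 lectin chaperones, 4 genes of stress sensing (3 sensors and the transcription factor XBP1), 9 genes of ER-associated degradation and 3 genes of translocation and export. Of the 34, 33 had a probe set of their own on the array, out of 18417 genes measured that way. PDIA3 was named only on probe sets that also name its pseudogene PDIA3P1, so it has no value here. Each probe set reports a gene's total signal, so the spliced and unspliced forms of XBP1 messenger RNA are not separated.

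The cells came from SUDHL-1, DEL, Karpas299 and SUPM2, 4 established lines of ALCL (anaplastic large cell lymphoma, a cancer of the T-cell lineage). Cells in log-phase culture (RPMI with fetal calf serum and antibiotics) were stained with Hoechst dye and sorted by flow cytometry, with no drug or genetic change named in the labels. SP is the side population, which retains little dye and is often examined for stem-like cells, and MP is the main population. SUDHL-1 gave 3 SP and 3 MP arrays, and each of DEL, Karpas299 and SUPM2 gave 1 SP and 1 MP array, so 12 arrays in all. The replicates are not stated to come from separate cultures, so p-values for SP against MP in SUDHL-1 reflect array-to-array spread, which may be technical. The test of SP against MP over 4 lines rests on the spread of the difference between lines. The test over DEL, Karpas299 and SUPM2 has no replicate arrays and rests on how that difference varied over these lines. Tests on all 12 arrays mix both kinds of spread. For SUDHL-1 against the other lines, how levels vary from line to line is not part of the error. Small p-values in that test therefore do not measure variation between lines. In bulk RNA from a sorted population, fewer cells of a type and less RNA per cell cannot be told apart.

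Proteins that enter the ER are held by the Hsp70 chaperone HSPA5 (BiP) and its helpers, receive their disulfide bonds from protein disulfide isomerases, and are sent back to the cytosol for degradation if they fail to fold. Unfolded protein activates 3 membrane sensors: ERN1 (IRE1), which splices XBP1 messenger RNA, ATF6, which is cut to release a transcription factor, and EIF2AK3 (PERK), which slows translation and raises translation of ATF4. Released ATF6 and spliced XBP1 raise transcription of ER chaperones, partly through a promoter sequence called the ER stress element, whereas ATF4 acts on another set of genes that includes DDIT3 and TRIB3.

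The ER stress element reads CCAAT, 9 bases of any kind, then CCACG, and a short form reads ATTGG, 1 base of any kind, then CCACG. Both were searched on both strands in RefSeq promoter windows of 300 bases (250 before to 50 after the gene start, build GRCh38.p14), and no match of one form overlapped a match of the other in a member. Of the 34 genes, 30 had a promoter in the table. Of these, 7 held the long form and 3 the short form, so 10 of 30 (33.3%) held either, against 30 of the 14239 promoters of genes measured here (0.211%) and 37 of all 27305 promoters (0.136%). The long form was in HSPA5, HSP90B1, CALR, CANX, XBP1, CRELD2 and ERO1B, and the short form in SDF2L1, HERPUD1 and HYOU1. The counts of 30 and 37 include the 10 members. The element was linked above to transcription of ER chaperones, so the shares are no independent test. A match is a description of letters and not evidence of binding. The 250 bases before the start are shown for the first 4 members on the list that hold an element, because they are the letters these chaperone genes share. Capitals mark CCAAT and CCACG, or their reverse complements ATTGG and CGTGG where the match lies on the other strand.
HSPA5 chr9:125241344-125241593, minus strand: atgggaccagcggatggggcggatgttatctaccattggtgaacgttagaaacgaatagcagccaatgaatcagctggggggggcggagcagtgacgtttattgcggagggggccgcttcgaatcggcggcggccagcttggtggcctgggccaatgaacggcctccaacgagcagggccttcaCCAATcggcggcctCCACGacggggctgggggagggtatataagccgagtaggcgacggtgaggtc
HSP90B1 chr12:103930160-103930409, plus strand: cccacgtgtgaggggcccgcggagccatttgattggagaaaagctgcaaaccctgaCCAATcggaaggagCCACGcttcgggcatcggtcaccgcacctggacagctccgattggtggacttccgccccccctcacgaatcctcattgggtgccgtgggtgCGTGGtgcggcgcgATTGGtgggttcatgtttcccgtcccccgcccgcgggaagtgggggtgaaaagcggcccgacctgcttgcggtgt
CALR chr19:12938359-12938608, plus strand: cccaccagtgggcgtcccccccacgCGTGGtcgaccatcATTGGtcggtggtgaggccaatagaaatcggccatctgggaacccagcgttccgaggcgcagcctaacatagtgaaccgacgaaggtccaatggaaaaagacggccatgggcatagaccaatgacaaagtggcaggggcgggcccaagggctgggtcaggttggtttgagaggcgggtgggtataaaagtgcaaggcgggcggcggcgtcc
CANX chr5:179698679-179698928, plus strand: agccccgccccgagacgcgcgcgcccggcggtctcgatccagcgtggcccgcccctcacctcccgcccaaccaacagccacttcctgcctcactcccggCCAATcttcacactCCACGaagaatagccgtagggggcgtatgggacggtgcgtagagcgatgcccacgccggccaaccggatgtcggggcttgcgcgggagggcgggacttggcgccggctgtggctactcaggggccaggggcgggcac
Read in its own orientation, the HSPA5 element is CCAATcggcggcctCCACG, from base -66 to base -48 relative to the start. HSP90B1 holds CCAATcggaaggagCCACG at -194 to -176 and, on the other strand, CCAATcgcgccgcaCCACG at -89 to -71. The XBP1 element is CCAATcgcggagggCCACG at -52 to -34, and that of ERO1B, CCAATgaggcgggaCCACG, lies farther upstream at -243 to -225 on the other strand. HYOU1 holds the short form ATTGGaCCACG at 2 places on the other strand, at -185 to -175 and at -79 to -69.

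All values are log2 signals. The median over all probe sets was 4.83 to 5.0 per SUDHL-1 array, below the 5.24 to 5.35 of DEL, Karpas299 and SUPM2, so the SUDHL-1 arrays stood apart, and for SUDHL-1 the line and the array set cannot be told apart. Correlations over all genes were 0.974 to 0.984 among the SUDHL-1 SP arrays, 0.973 to 0.984 among its MP arrays and 0.965 to 0.986 between the populations. TNFRSF8, which encodes the ALCL marker CD30, ranged from 6.80 to 10.51 over the 12 arrays and GZMB from 9.64 to 12.10. As deposited, both were lower in SUDHL-1 than the mean of the other 3 lines, at -1.71 and -1.02 (limma adjusted p = 1.20e-05 and 9.27e-05). The T-cell receptor genes differed from one another. CD3E (3.11 to 4.76) and CD3G (3.20 to 3.74) were dim in all lines, CD3D read 5.42 and 5.94 in DEL and 8.86 to 10.51 elsewhere, and CD247 read 3.96 to 4.23 in SUDHL-1 and at least 4.66 elsewhere, with line means of 5.05 in DEL, 7.56 in Karpas299 and 8.30 in SUPM2. ALK had no probe set of its own. Of the 14 measured ALCL and T-lineage genes, limma called 3 higher and 9 lower in SUDHL-1 as deposited, at an adjusted p under 0.05. The shares of all genes were 16.4% and 49.2%. CD4, CD2 and PRF1 differed by -4.04, -2.46 and -2.25, and CD3D, CD5 and IL2RA by 1.92, 0.69 and 0.62. Of 12 measured myeloid genes 1 was called higher in SUDHL-1, CD163 at 4.13, and 8 lower. Of 12 listed B-cell and plasma-cell markers, which would come with a large ER, 11 were measured, and their median was 3.96 to 5.35 per array.

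Among the 3 lines with 1 pair of arrays each, a chaperone helper and 3 disulfide genes differed, each lowest in SUPM2. The lines DEL, Karpas299 and SUPM2 were compared with limma's F test. At an adjusted p under 0.05, 4 of 33 members (12.1%) passed, namely ERO1B, PDIA4, PDIA6 and DNAJC10, against 7.50% of all genes (1382). The members were mostly bright, with a median percentile of 89.6 among all genes. With dim genes left out the same 4 passed, against 9.35% of the genes kept. The members' share was thus not far above the background, and the excess was not tested. At an unadjusted p under 0.05 the count was 12 of 33, against 24.1% of all genes. Both SUPM2 arrays lay below the other 4 arrays for 12 of 33 members (12.9% of all genes) and above them for 4, HERPUD1, EDEM1, DERL1 and SEC24D (17.3%). The 12 low in SUPM2 were HSP90B1, DNAJB11, DNAJC10, SDF2L1, MANF, PDIA4, PDIA6, P4HB, ERO1B, CALR, CANX and EDEM3. Both DEL arrays were the highest for 9 members (9.54% of all genes) and the lowest for 2, HERPUD1 and DERL3 (13.5%), and both Karpas299 arrays were the highest for 4 (11.6%) and the lowest for 4 (10.5%). The F test rested on few arrays: with any 1 DEL or Karpas299 array left out no member passed, without the SUPM2 SP array 2 passed, and without the SUPM2 MP array 1 passed.

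SUDHL-1 was compared with the mean of the other 3 lines on all 12 arrays. On the deposited scale 6 members were higher (16.4% of all genes) and 17 lower (49.2%) at a limma adjusted p under 0.05. All 6 SUDHL-1 arrays lay above the 6 other arrays for 3 members (7.51% of all genes) and below them for 10 (29.1%). The median over all genes was itself -0.33, beside -0.36 for the members, so directions are given relative to that shift through 2 further scalings. After renewed quantile normalization 6 members were higher (26.0% of all genes) and 15 lower (25%), with medians of -0.31 for the members and 0.014 for all genes. With each array centred on its median, 11 were higher (34.6%) and 7 lower (19.6%). In all 3 scalings 5 members were higher (15.5% of all genes), namely HSP90B1, DNAJB11, DNAJC10, MANF and ERO1B, and 7 were lower (19.5%), namely DNAJC3, P4HB, ERN1, XBP1, HERPUD1, EDEM1 and SEC61B. These shares, 15.2% and 21.2% of the members, are near those of all genes, so what follows concerns which genes they were.

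**Figure D1:**
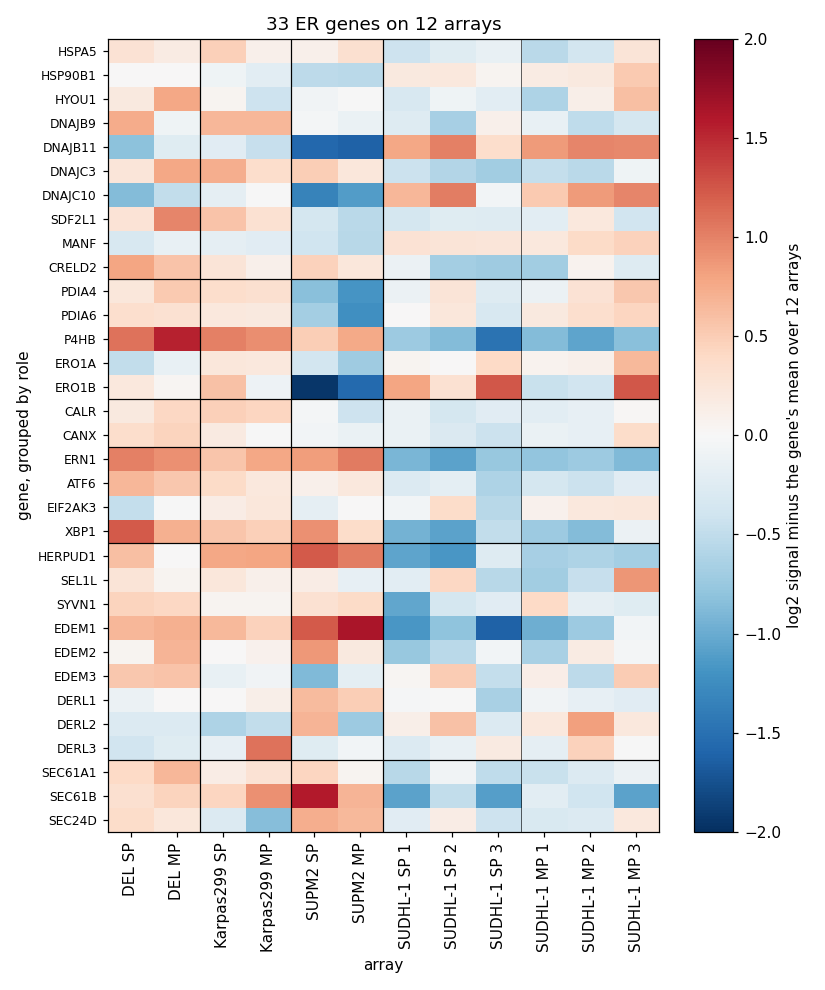
Rows are the 33 measured genes grouped by role and columns the 12 arrays, and colour gives the log2 signal minus the gene's mean over the 12 arrays. DNAJB11, DNAJC10, PDIA4, PDIA6 and ERO1B are blue on both SUPM2 arrays, and P4HB, ERN1, XBP1, HERPUD1 and EDEM1 are blue on the SUDHL-1 arrays.

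Among the chaperones, HSPA5 and HSP90B1 are the ER's Hsp70 and Hsp90. HSPA5 read 11.94 in SP and 11.83 in MP of DEL, 12.14 and 11.76 in Karpas299, and 11.76 and 11.98 in SUPM2. HSPA5 in SUDHL-1 was 11.25, 11.42 and 11.51 on the SP arrays and 11.12, 11.29 and 11.93 on the MP arrays. Its level did not separate DEL, Karpas299 and SUPM2 (limma adjusted p = 0.962), and the SUDHL-1 arrays were lower apart from MP array 3, which overlapped the other lines. The SUDHL-1 difference was -0.48 (SE 0.15, limma adjusted p = 0.014) as deposited, -0.595 (adjusted p = 0.0132) after quantile normalization and -0.02 (adjusted p = 0.900) after centring. HSP90B1 read 12.07 in SP and 12.08 in MP of DEL, 11.98 and 11.85 in Karpas299, and 11.55 and 11.52 in SUPM2. HSP90B1 in SUDHL-1 was 12.25, 12.27 and 12.12 on the SP arrays and 12.23, 12.26 and 12.59 on the MP arrays. All SUDHL-1 arrays were above the other lines and both SUPM2 arrays were the lowest. HSP90B1 in SUDHL-1 differed from the other lines by 0.45 (SE 0.10, limma adjusted p = 0.0026), and without SUPM2 the difference was 0.29 (adjusted p = 0.0518).

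DNAJB11 and DNAJC10 are J-domain partners that deliver unfolded protein to HSPA5, DNAJC10 also acting as a disulfide reductase. DNAJB11 read 9.54 in SP and 10.14 in MP of DEL, 10.15 and 9.91 in Karpas299, and 8.81 and 8.76 in SUPM2. DNAJB11 in SUDHL-1 was 11.14, 11.38 and 10.73 on the SP arrays and 11.23, 11.36 and 11.33 on the MP arrays. The 3 levels did not overlap, with SUPM2 lowest, DEL and Karpas299 between and SUDHL-1 highest. DNAJB11 was higher in SUDHL-1 by 1.64 (SE 0.14, limma adjusted p = 3.41e-06), and its F test over the other 3 lines gave a limma adjusted p of 0.073. DNAJC10 read 7.75 in SP and 8.13 in MP of DEL, 8.44 and 8.62 in Karpas299, and 7.29 and 7.51 in SUPM2. DNAJC10 in SUDHL-1 was 9.28, 9.65 and 8.56 on the SP arrays and 9.15, 9.47 and 9.60 on the MP arrays. The lines were ordered SUPM2, DEL, Karpas299 without overlap, and SUDHL-1 lay above them on 5 of 6 arrays, its SP array 3 falling inside the Karpas299 values. DNAJC10 differed over the 3 lines (limma adjusted p = 0.048), with Karpas299 minus SUPM2 at 1.14 (SE 0.18, limma adjusted p = 0.030). DNAJC10 in SUDHL-1 exceeded the other lines by 1.33 (SE 0.17, limma adjusted p = 6.16e-05).

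The remaining chaperone helpers went in both directions. DNAJC3, a J-domain protein that also restrains EIF2AK3, was lower in SUDHL-1. DNAJC3 read 8.34 in SP and 8.86 in MP of DEL, 8.82 and 8.45 in Karpas299, and 8.58 and 8.32 in SUPM2. DNAJC3 in SUDHL-1 was 7.66, 7.50 and 7.40 on the SP arrays and 7.62, 7.55 and 8.0 on the MP arrays. The 2 sets of arrays did not overlap, and the difference was -0.94 (SE 0.14, limma adjusted p = 1.79e-04). MANF, a secreted ER-resident protein raised by stress, was the opposite. MANF read 10.32 in SP and 10.49 in MP of DEL, 10.46 and 10.42 in Karpas299, and 10.25 and 10.09 in SUPM2. MANF in SUDHL-1 was 10.93, 10.91 and 10.89 on the SP arrays and 10.86, 11.03 and 11.10 on the MP arrays. All SUDHL-1 arrays exceeded the others, by 0.61 (SE 0.09, limma adjusted p = 1.78e-04). Neither gene passed the test over the other 3 lines (limma adjusted p = 0.884 and 0.599). Line means of SDF2L1, a partner of DNAJB11, were 7.42 in DEL, 7.23 in Karpas299, 6.35 in SUPM2 and 6.59 in SUDHL-1, and its 3-line F test gave a limma adjusted p of 0.139. CRELD2, another stress-induced secreted protein, had means of 7.28 in DEL, 6.78 in Karpas299, 6.94 in SUPM2 and 6.20 in SUDHL-1. Means of HYOU1, which exchanges nucleotide on HSPA5, were 8.73 in DEL, 8.06 in Karpas299, 8.21 in SUPM2 and 8.16 in SUDHL-1. The signs of the SUDHL-1 differences of HYOU1 and SDF2L1 changed with scaling, from -0.17 and -0.41 as deposited to 0.29 and 0.05 after centring. DNAJB9, a J-domain protein induced through XBP1, had means of 8.57 in DEL, 8.91 in Karpas299, 8.15 in SUPM2 and 7.93 in SUDHL-1. Its SUDHL-1 difference was -0.61 as deposited, -0.63 after quantile normalization and -0.15 after centring.

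Disulfide formation held 3 of the 4 members that passed the 3-line test. PDIA4 and PDIA6 are protein disulfide isomerases. PDIA4 read 9.46 in SP and 9.77 in MP of DEL, 9.60 and 9.55 in Karpas299, and 8.41 and 8.06 in SUPM2. PDIA4 in SUDHL-1 was 9.13, 9.49 and 8.99 on the SP arrays and 9.12, 9.52 and 9.77 on the MP arrays. Both SUPM2 arrays were below all 10 other arrays. PDIA4 exceeded SUPM2 in DEL by 1.38 (SE 0.22, limma adjusted p = 0.038) and in Karpas299 by 1.34 (SE 0.22, limma adjusted p = 0.033). PDIA6 read 10.48 in SP and 10.44 in MP of DEL, 10.35 and 10.33 in Karpas299, and 9.45 and 8.92 in SUPM2. PDIA6 in SUDHL-1 was 10.15, 10.36 and 9.82 on the SP arrays and 10.33, 10.48 and 10.57 on the MP arrays. Again both SUPM2 arrays were the lowest of the 12. PDIA6 exceeded SUPM2 by 1.27 (SE 0.22, limma adjusted p = 0.042) in DEL and by 1.15 (SE 0.22, limma adjusted p = 0.043) in Karpas299.

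ERO1A and ERO1B are the oxidases that recharge the isomerases. ERO1B read 5.87 in SP and 5.70 in MP of DEL, 6.24 and 5.56 in Karpas299, and 3.72 and 4.11 in SUPM2. ERO1B in SUDHL-1 was 6.45, 5.97 and 6.91 on the SP arrays and 5.22, 5.28 and 6.91 on the MP arrays. SUPM2 stood apart from all other arrays, and the SUDHL-1 arrays were spread widely, MP arrays 1 and 2 lying below the other 4. Both SUPM2 values were dim, below the median over all genes on their arrays (5.80 in SP and 5.78 in MP). The sizes of the differences from SUPM2 therefore rest on dim values. ERO1B had the smallest p among the members in the 3-line test (limma adjusted p = 0.031). DEL exceeded SUPM2 by 1.87 (SE 0.29, limma adjusted p = 0.035), and Karpas299 exceeded it by 1.99 (SE 0.29, limma adjusted p = 0.025). Its SUDHL-1 difference was 0.92 (SE 0.30, limma adjusted p = 0.020), but 0.28 (adjusted p = 0.490) without SUPM2. ERO1A had means of 10.24 in DEL, 10.78 in Karpas299, 10.03 in SUPM2 and 10.78 in SUDHL-1. Its SUDHL-1 difference passed as deposited, at 0.43 (SE 0.14, limma adjusted p = 0.020). It was 0.18 (adjusted p = 0.362) after quantile normalization and 0.89 (adjusted p = 2.46e-04) after centring.

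P4HB, the founding protein disulfide isomerase, had the largest SUDHL-1 difference of the 33 members on the deposited scale. P4HB read 10.77 in SP and 11.22 in MP of DEL, 10.68 and 10.61 in Karpas299, and 10.17 and 10.43 in SUPM2. P4HB in SUDHL-1 was 8.95, 8.81 and 8.19 on the SP arrays and 8.81, 8.62 and 8.84 on the MP arrays. The lowest value in the other lines was more than 1 log2 unit above the highest in SUDHL-1. P4HB was lower in SUDHL-1, with a difference of -1.94 (SE 0.14, limma adjusted p = 1.14e-06). A second probe set gave the same separation, with at most 8.82 in SUDHL-1 and at least 9.86 elsewhere. Within the 3 other lines the order was DEL, Karpas299, SUPM2 (limma adjusted p = 0.210).

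Over the pairs of lines, DEL exceeded SUPM2 for 3 members (PDIA4, PDIA6 and ERO1B; 3.25% of all genes) and was below it for 0 (1.47%). Karpas299 exceeded SUPM2 for 4 (the same genes and DNAJC10; 4.29%) and was below it for 1, SEC24D (2.52%). Between DEL and Karpas299 no member passed in either direction (1.35% and 1.06% of all genes).

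**Figure D2:**
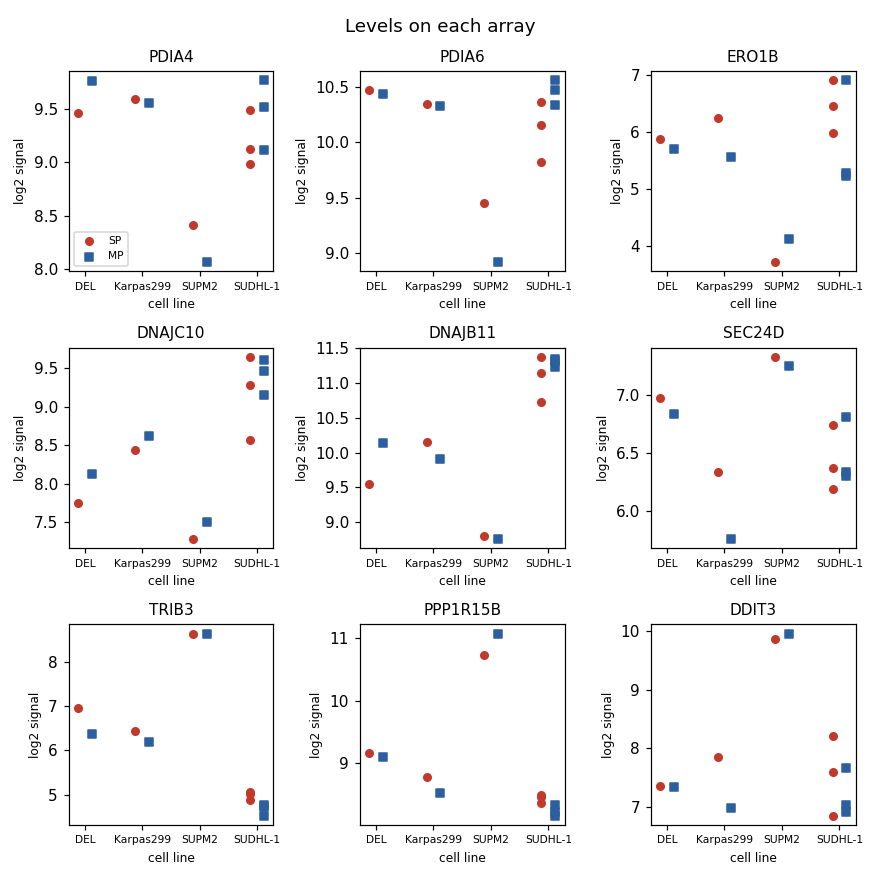
Each panel shows a gene's log2 signal on every array by cell line, SP as circles and MP as squares, and each panel has its own axis range. PDIA4, PDIA6, ERO1B, DNAJC10 and DNAJB11 are lowest in SUPM2, while SEC24D, TRIB3, PPP1R15B and DDIT3 are highest there.

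CALR and CANX are the soluble and the membrane-bound lectin chaperones, which hold glycoproteins while they fold. Line means of CALR were 11.99 in DEL, 12.12 in Karpas299, 11.45 in SUPM2 and 11.50 in SUDHL-1, and those of CANX were 11.78 in DEL, 11.47 in Karpas299, 11.29 in SUPM2 and 11.25 in SUDHL-1. For both genes the SUPM2 arrays were below those of DEL and Karpas299, but the F tests did not pass (limma adjusted p = 0.214 and 0.306). Their SUDHL-1 differences changed sign with scaling, from -0.36 and -0.26 as deposited to 0.10 and 0.20 after centring. After quantile normalization they were -0.47 and -0.41 (limma adjusted p = 0.0044 and 0.032).

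On the deposited scale ERN1, XBP1 and ATF6 were lower in SUDHL-1 than in the other lines, and EIF2AK3 did not pass that test. ERN1 is the kinase and RNase that splices XBP1. ERN1 read 7.33 in SP and 7.23 in MP of DEL, 6.87 and 7.09 in Karpas299, and 7.16 and 7.36 in SUPM2. ERN1 in SUDHL-1 was 5.40, 5.25 and 5.56 on the SP arrays and 5.53, 5.59 and 5.43 on the MP arrays. The highest SUDHL-1 array was more than 1 log2 unit below the lowest of the others. The SUDHL-1 values of ERN1 were near the median over all genes on those arrays (5.25 to 5.37). ERN1 was lower in SUDHL-1, with a difference of -1.71 (SE 0.10, limma adjusted p = 1.88e-07), the smallest p of the 33 members. XBP1 is the transcription factor made from the spliced message. XBP1 read 10.23 in SP and 9.71 in MP of DEL, 9.56 and 9.48 in Karpas299, and 9.91 and 9.36 in SUPM2. XBP1 in SUDHL-1 was 8.06, 7.94 and 8.51 on the SP arrays and 8.27, 8.14 and 8.88 on the MP arrays. Again no SUDHL-1 array reached the other lines, and XBP1 differed by -1.41 (SE 0.18, limma adjusted p = 7.00e-05).

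ATF6, the sensor that becomes a transcription factor, also showed no overlap. ATF6 read 9.84 in SP and 9.72 in MP of DEL, 9.56 and 9.39 in Karpas299, and 9.29 and 9.40 in SUPM2. ATF6 in SUDHL-1 was 8.92, 9.0 and 8.56 on the SP arrays and 8.83, 8.75 and 8.96 on the MP arrays. Its difference was -0.70 (SE 0.10, limma adjusted p = 1.90e-04) as deposited and -0.88 (adjusted p = 2.68e-05) after quantile normalization. After centring it was -0.24 (adjusted p = 0.0919), so its call depended on the scaling. EIF2AK3, the sensor kinase of the ATF4 arm, overlapped between SUDHL-1 and each other line, while both Karpas299 arrays lay above those of DEL and SUPM2. EIF2AK3 read 5.61 in SP and 6.08 in MP of DEL, 6.24 and 6.32 in Karpas299, and 5.91 and 6.09 in SUPM2. EIF2AK3 in SUDHL-1 was 6.04, 6.45 and 5.54 on the SP arrays and 6.17, 6.29 and 6.32 on the MP arrays. EIF2AK3 differed by 0.09 (SE 0.14, limma adjusted p = 0.581) as deposited, by 0.50 (adjusted p = 0.0105) after quantile normalization and by 0.55 (adjusted p = 0.0115) after centring. None of the 4 genes passed the 3-line test (limma adjusted p from 0.368 for ATF6 to 0.542 for ERN1).

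In the degradation group, HERPUD1 and EDEM1 were low in SUDHL-1 and highest in SUPM2. HERPUD1 organises the degradation complex in the membrane. HERPUD1 read 9.86 in SP and 9.27 in MP of DEL, 10.04 and 10.06 in Karpas299, and 10.49 and 10.28 in SUPM2. HERPUD1 in SUDHL-1 was 8.20, 8.10 and 9.0 on the SP arrays and 8.59, 8.65 and 8.58 on the MP arrays. No SUDHL-1 array overlapped the others, and the difference was -1.48 (SE 0.17, limma adjusted p = 2.92e-05). EDEM1 helps to mark glycoproteins for degradation by trimming their mannose. EDEM1 read 7.72 in SP and 7.76 in MP of DEL, 7.69 and 7.50 in Karpas299, and 8.28 and 8.68 in SUPM2. EDEM1 in SUDHL-1 was 5.88, 6.24 and 5.43 on the SP arrays and 6.06, 6.32 and 7.0 on the MP arrays. SUDHL-1 lay below all other arrays, with a difference of -1.78 (SE 0.20, limma adjusted p = 2.54e-05), with MP array 3 nearest to them. Both genes were higher in SUPM2 than on the 4 DEL and Karpas299 arrays, but their 3-line F tests did not pass (limma adjusted p = 0.159 and 0.112).

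The other degradation genes are given next. SEL1L and SYVN1 form the ubiquitin ligase at the centre of ER-associated degradation. SYVN1 read 7.84 in SP and 7.80 in MP of DEL, 7.44 and 7.45 in Karpas299, and 7.69 and 7.77 in SUPM2. SYVN1 in SUDHL-1 was 6.35, 7.04 and 7.17 on the SP arrays and 7.80, 7.21 and 7.15 on the MP arrays. SYVN1 in SUDHL-1 reached the other lines on MP array 1 alone. SEL1L read 7.92 in SP and 7.71 in MP of DEL, 7.89 and 7.77 in Karpas299, and 7.80 and 7.50 in SUPM2. SEL1L ranged from 6.96 (MP array 1) to 8.54 (MP array 3) over the SUDHL-1 arrays, the other 4 reading 7.45, 8.07, 7.10 and 7.20. Both genes overlapped between SUDHL-1 and the other lines, with differences of -0.55 for SYVN1 and -0.21 for SEL1L. EDEM2 means were 7.19 in DEL, 6.88 in Karpas299, 7.36 in SUPM2 and 6.52 in SUDHL-1, and EDEM3 means were 8.26 in DEL, 7.60 in Karpas299, 7.18 in SUPM2 and 7.74 in SUDHL-1. The derlins DERL1, DERL2 and DERL3 form part of the exit channel. DERL1 means were 8.69 in DEL, 8.80 in Karpas299, 9.31 in SUPM2 and 8.56 in SUDHL-1, and DERL2 means were 8.28 in DEL, 7.99 in Karpas299, 8.52 in SUPM2 and 8.83 in SUDHL-1. DERL3 read 5.73 in SP and 5.88 in MP of DEL, 5.95 and 7.20 in Karpas299, and 5.88 and 6.06 in SUPM2. DERL3 in SUDHL-1 was 5.84, 5.97 and 6.29 on the SP arrays and 5.95, 6.59 and 6.12 on the MP arrays. The Karpas299 MP array stood above all others for DERL3. None of these 7 genes passed the 3-line test (the smallest limma adjusted p was 0.098, for EDEM3). The SUDHL-1 difference passed in all 3 scalings for none of the 7.

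Of the translocation and export genes, SEC61A1 is the channel through which proteins enter the ER and SEC61B one of its small subunits. SEC61B read 9.28 in SP and 9.41 in MP of DEL, 9.39 and 9.87 in Karpas299, and 10.54 and 9.64 in SUPM2. SEC61B in SUDHL-1 was 7.89, 8.47 and 7.86 on the SP arrays and 8.76, 8.56 and 7.89 on the MP arrays. All SUDHL-1 arrays were below the others, with a difference of -1.45 (SE 0.22, limma adjusted p = 1.81e-04). SEC61A1 read 9.54 in SP and 9.80 in MP of DEL, 9.28 and 9.42 in Karpas299, and 9.57 and 9.20 in SUPM2. SEC61A1 in SUDHL-1 was 8.59, 9.07 and 8.63 on the SP arrays and 8.69, 8.86 and 9.02 on the MP arrays. SEC61A1 also did not overlap, at -0.66 (SE 0.13, limma adjusted p = 0.001) as deposited. Its difference was -0.84 (adjusted p = 7.64e-05) after quantile normalization, but -0.20 (adjusted p = 0.223) after centring. SEC24D is a cargo adaptor of the COPII coat that carries proteins out of the ER. SEC24D read 6.98 in SP and 6.84 in MP of DEL, 6.33 and 5.76 in Karpas299, and 7.34 and 7.26 in SUPM2. SEC24D in SUDHL-1 was 6.37, 6.75 and 6.19 on the SP arrays and 6.30, 6.34 and 6.81 on the MP arrays. SUPM2 was highest and Karpas299 lowest, with SUDHL-1 overlapping Karpas299 and lying just below DEL. SEC24D just missed the 3-line threshold (limma adjusted p = 0.051), and Karpas299 minus SUPM2 was -1.25 (SE 0.21, limma adjusted p = 0.033).

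**Figure D3:**
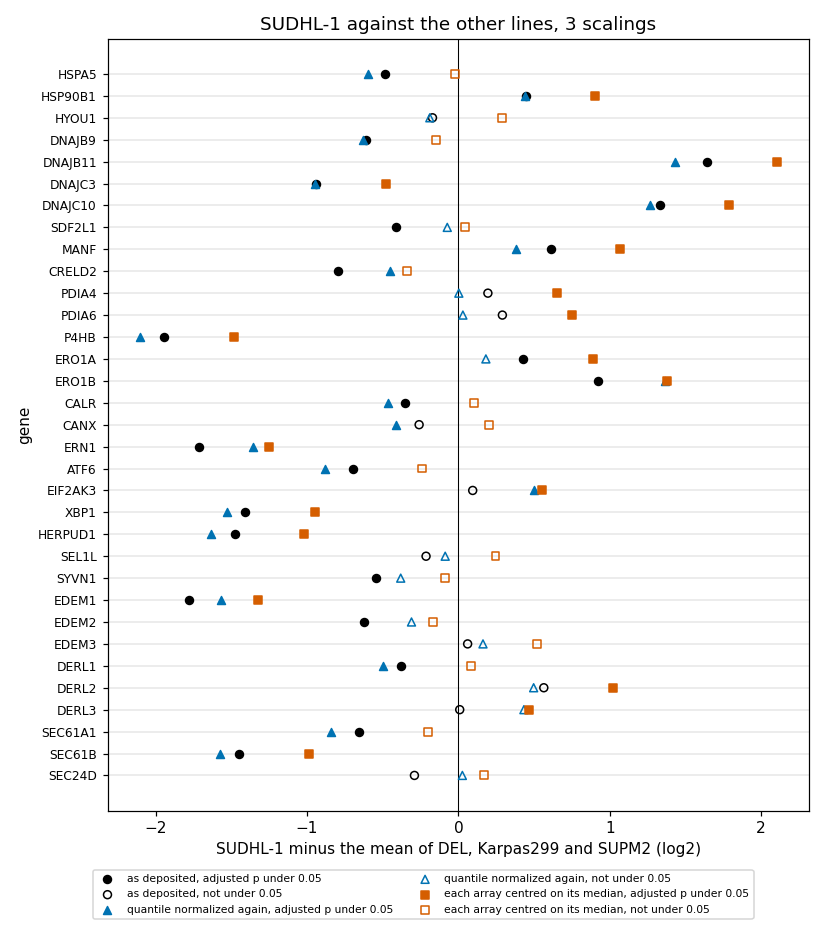
Each row is a gene and each symbol its SUDHL-1 level minus the mean of DEL, Karpas299 and SUPM2 (log2) under a scaling, filled where the limma adjusted p is under 0.05. The 5 genes HSP90B1, DNAJB11, DNAJC10, MANF and ERO1B are filled right of 0 in all 3 scalings and the 7 genes DNAJC3, P4HB, ERN1, XBP1, HERPUD1, EDEM1 and SEC61B left of 0.

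The ATF4 arm lies downstream of EIF2AK3. Of its 13 genes listed and measured, 7 passed the 3-line test (TRIB3, PPP1R15B, DDIT3, ATF3, CHAC1, SESN2 and PPP1R15A), against 7.50% of all genes, and each of the 7 was highest in SUPM2. TRIB3 is a pseudokinase induced by ATF4. TRIB3 read 6.95 in SP and 6.37 in MP of DEL, 6.44 and 6.20 in Karpas299, and 8.62 and 8.63 in SUPM2. PPP1R15B encodes a subunit of the phosphatase that restores translation. PPP1R15B read 9.16 in SP and 9.09 in MP of DEL, 8.77 and 8.51 in Karpas299, and 10.74 and 11.08 in SUPM2. DDIT3 encodes the stress transcription factor CHOP. DDIT3 read 7.37 in SP and 7.35 in MP of DEL, 7.85 and 6.99 in Karpas299, and 9.86 and 9.95 in SUPM2. For all 3 genes both SUPM2 arrays were more than 1 log2 unit above the other 4 (limma adjusted p = 0.012, 0.013 and 0.015). ATF4 itself was 11.42 and 11.46 in SUPM2 and between 10.43 and 10.97 in DEL and Karpas299 (limma adjusted p = 0.116). In SUDHL-1 12 of the 13 genes were called lower as deposited (limma adjusted p under 0.05, 49.2% of all genes). In all 3 scalings 10 were called lower (19.5% of all genes), the exceptions being ATF4, DDIT3 and NUPR1. ATF4 went the other way, being called higher in SUDHL-1 as deposited, at 0.24 (limma adjusted p = 0.0457). It was also called higher after centring, at 0.70 (adjusted p = 1.19e-04), but not after quantile normalization, at 0.077 (adjusted p = 0.554). TRIB3 in SUDHL-1 was 4.53 to 5.07 and differed by -2.37 (SE 0.10, limma adjusted p = 4.17e-08). These TRIB3 values lay below the median over all genes on those arrays (5.25 to 5.37), so the size rests on dim values. VLDLR, a lipoprotein receptor, differed by -3.59 (SE 0.15, limma adjusted p = 3.77e-08) and ASNS, asparagine synthetase, by -2.32 (SE 0.15, limma adjusted p = 6.30e-07).

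The other lists of the secretory pathway had 0 or 1 call each in the 3-line test, where 7.50% of all genes passed. Of 19 further translocon and signal peptide genes 1 passed, SRPRA (limma adjusted p = 0.026), and of 17 N-glycan attachment genes 1, RPN2, a subunit of oligosaccharyltransferase (0.047), which read 9.38 and 9.09 in SUPM2 and 10.32 to 10.77 in DEL and Karpas299. Of 18 other folding enzymes 1 passed, QSOX1, a sulfhydryl oxidase (0.045), and of 13 other sensors and stress genes 1, CREB3L3 (0.040). No gene passed among 16 further degradation genes or 12 COPII coat genes. Among 13 cytosolic heat shock genes HSP90AA1 passed (0.048), at 10.86 and 10.98 in SUPM2 against 11.84 to 11.92 in DEL and Karpas299. Against the other lines in all 3 scalings (15.5% of all genes higher and 19.5% lower), SUDHL-1 was higher for 5 and lower for 4 of the 19 translocon genes, and higher for 6 and lower for 5 of the 17 N-glycan genes. The corresponding counts were 4 and 6 of 18 folding enzymes, 2 and 2 of 16 degradation genes, 2 and 6 of 13 other sensors, 3 and 4 of 12 COPII genes, and 4 and 1 of 13 heat shock genes.

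The study's own comparison asks how SP cells differ from MP cells. In SUDHL-1, 31 of 33 members had a lower mean in SP (50.1% of all genes), but each difference was small and the SP and MP arrays of every member overlapped. The median difference was -0.17 on the log2 scale, beside -0.000244 over all genes. With limma, 0 of 33 passed at an adjusted p under 0.05 (0% of all genes) and 0 of 33 at an unadjusted p under 0.05 (3.13%, or 577 genes). All 3 SP arrays lay above all 3 MP arrays for 0 members (3.74% of all genes) and below them for 0 (3.42%). By role the medians were -0.17 for the chaperones, -0.12 for disulfide formation, -0.22 for the lectin chaperones, -0.18 for the sensors, -0.18 for degradation and -0.09 for translocation and export.

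The 3 lower members of smallest p were EDEM1, SYVN1 and PDIA6, and the only 2 higher in SP were ERO1B and DNAJB9. EDEM1, whose array values are given above, averaged 5.85 ± 0.41 in SP and 6.46 ± 0.48 in MP (SD, n = 3 arrays each), a difference of -0.61 (SE 0.30, unadjusted p = 0.076, limma adjusted p = 1.00). SYVN1 averaged 6.85 ± 0.44 in SP and 7.39 ± 0.36 in MP (SD, n = 3 arrays each), a difference of -0.53 (SE 0.27, unadjusted p = 0.089, limma adjusted p = 1.00). For SYVN1, SP array 1 was the lowest and MP array 1 the highest of the 6, and the other 4 lay close together. PDIA6 averaged 10.11 ± 0.28 in SP and 10.46 ± 0.12 in MP (SD, n = 3 arrays each), a difference of -0.35 (SE 0.18, unadjusted p = 0.092, limma adjusted p = 1.00), with SP array 2 inside the MP values. ERO1B averaged 6.44 ± 0.47 in SP and 5.80 ± 0.96 in MP (SD, n = 3 arrays each), a difference of 0.64 (SE 0.47, unadjusted p = 0.213, limma adjusted p = 1.00), and MP array 3 equalled the highest SP array at 6.91. DNAJB9 read 8.99 in SP and 8.15 in MP of DEL, 8.91 and 8.91 in Karpas299, and 8.20 and 8.10 in SUPM2. DNAJB9 in SUDHL-1 was 7.98, 7.57 and 8.34 on the SP arrays and 8.08, 7.74 and 7.89 on the MP arrays. DNAJB9 overlapped between the populations, at 0.06 (SE 0.22, unadjusted p = 0.794, limma adjusted p = 1.00).

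The members stood high on MP array 3. On it 26 of 33 members were above their own SUDHL-1 mean, with a median of 0.21, whereas 9 were on SP array 1, with a median of -0.10, and 10 on SP array 3, with a median of -0.22. HSPA5 was 11.93 on MP array 3 and at most 11.51 on the other 5 arrays, and HSP90B1 was 12.59 against at most 12.27. Without MP array 3 the members' median was -0.11, and 24 of 33 were lower in SP. Without SP array 3 the median was -0.13, and 25 of 33 were lower in SP. On MP array 3 the 16 measured cholesterol synthesis genes had a median of 0.80 relative to their SUDHL-1 means. The 20 G2 and M phase genes had a median of -0.81 there. Between the populations, 14 of 16 cholesterol genes were lower in SP (median -0.37) and 20 of 20 G2 and M phase genes higher (median 0.69). The part of these other groups in the members' values was not tested.

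**Figure D4:**
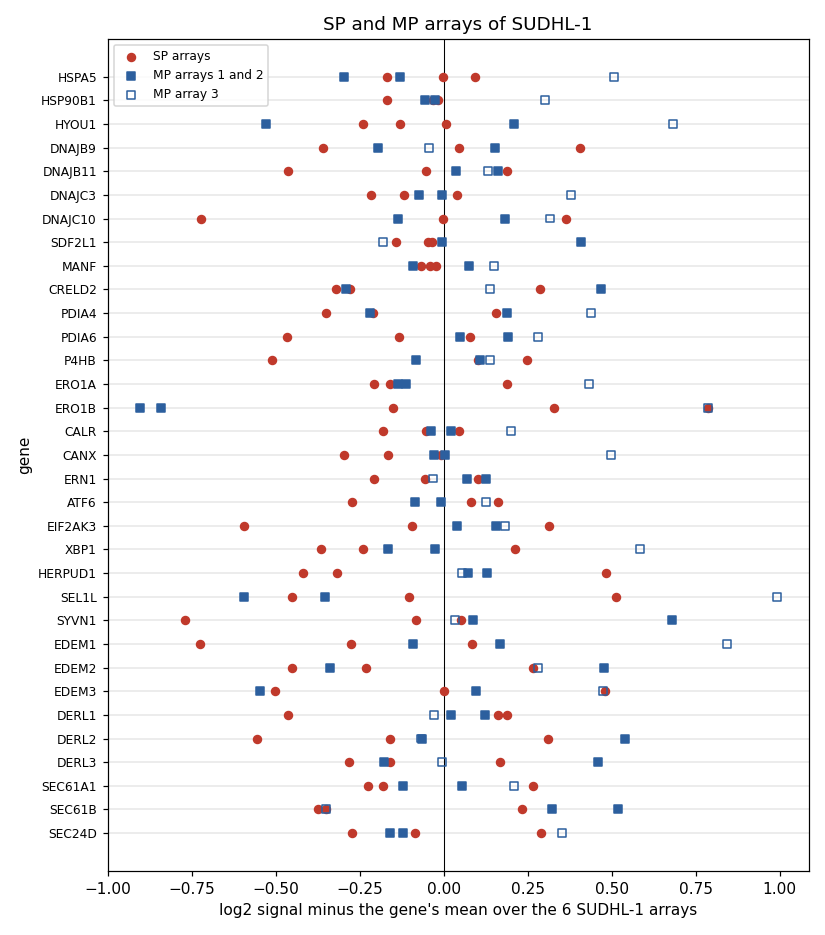
Each row is a gene, and the symbols give the log2 signal on the 3 SP and 3 MP arrays of SUDHL-1 minus the gene's mean over the 6. SP and MP symbols overlap for every gene, and MP array 3 (open squares) is right of 0 for 26 of the 33.

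The sensors' SP means were below MP without exception, by amounts smaller than the SD over the 6 arrays. XBP1 differed by -0.26 (SE 0.25, unadjusted p = 0.323, limma adjusted p = 1.00), EIF2AK3 by -0.25 (SE 0.23, unadjusted p = 0.314, limma adjusted p = 1.00), ERN1 by -0.11 (SE 0.15, unadjusted p = 0.483, limma adjusted p = 1.00) and ATF6 by -0.02 (SE 0.17, unadjusted p = 0.904, limma adjusted p = 1.00). HSPA5 differed by -0.05 (SE 0.23, unadjusted p = 0.821, limma adjusted p = 1.00) and HSP90B1 by -0.15 (SE 0.16, unadjusted p = 0.379, limma adjusted p = 1.00).

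In the other lines the counts differed from those of SUDHL-1. SP was below MP for 20 of 33 members in DEL (47.3% of all genes), 13 in Karpas299 (50.8%) and 12 in SUPM2 (42.1%), and the median differences were -0.09, 0.04 and 0.10. Each of these is 1 SP array against 1 MP array with no replicate check. XBP1, for example, differed by 0.52 in DEL, 0.08 in Karpas299, 0.55 in SUPM2 and -0.26 in SUDHL-1. HSPA5 differed by 0.12 in DEL, 0.37 in Karpas299, -0.22 in SUPM2 and -0.05 in SUDHL-1, so neither of these genes kept 1 direction. Over the 4 lines together the members' median was -0.03, beside 0.02 for all genes, and limma called 0 of 33 members (0% of all genes) at an adjusted p under 0.05. At an unadjusted p under 0.05 it called 1, DNAJC10 (4.91%, or 904 genes).

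DNAJC10, EIF2AK3, EDEM3 and DERL3 were lower in SP in 4 of 4 lines (5.65% of all genes), and 0 members were higher in 4 of 4 (8.09%). DNAJC10 differed by -0.38 in DEL, -0.18 in Karpas299, -0.22 in SUPM2 and -0.24 in SUDHL-1. The 4 differences were close to each other, with a mean of -0.25 ± 0.09 (SD, n = 4 lines; limma unadjusted p = 0.048, adjusted p = 0.918). EIF2AK3 differed by -0.47 in DEL, -0.08 in Karpas299, -0.18 in SUPM2 and -0.25 in SUDHL-1, with a mean of -0.24 ± 0.17 (SD, n = 4 lines; limma unadjusted p = 0.076, adjusted p = 0.918). DERL3 differed by -0.14 in DEL, -1.25 in Karpas299, -0.18 in SUPM2 and -0.18 in SUDHL-1, so its mean of -0.44 ± 0.54 (SD, n = 4 lines; limma unadjusted p = 0.084, adjusted p = 0.918) rested mostly on Karpas299. EDEM3 differed by -0.022 in DEL, -0.091 in Karpas299, -0.69 in SUPM2 and -0.015 in SUDHL-1. Its mean of -0.21 ± 0.33 (SD, n = 4 lines; limma unadjusted p = 0.221, adjusted p = 0.918) thus rested mostly on SUPM2. In the other direction the smallest p were those of DNAJB9, SEL1L and SEC24D. DNAJB9 differed by 0.84 in DEL, -0.00054 in Karpas299, 0.10 in SUPM2 and 0.06 in SUDHL-1, mostly in DEL, with a mean of 0.25 ± 0.39 (SD, n = 4 lines; limma unadjusted p = 0.188, adjusted p = 0.918). SEL1L had a mean of 0.15 ± 0.14 (SD, n = 4 lines; limma unadjusted p = 0.215, adjusted p = 0.918) and SEC24D of 0.19 ± 0.27 (SD, n = 4 lines; limma unadjusted p = 0.217, adjusted p = 0.918), each higher in SP in 3 of 4 lines. The members' median moved between -0.10 without SUPM2 and 0.04 without DEL.

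**Figure D5:**
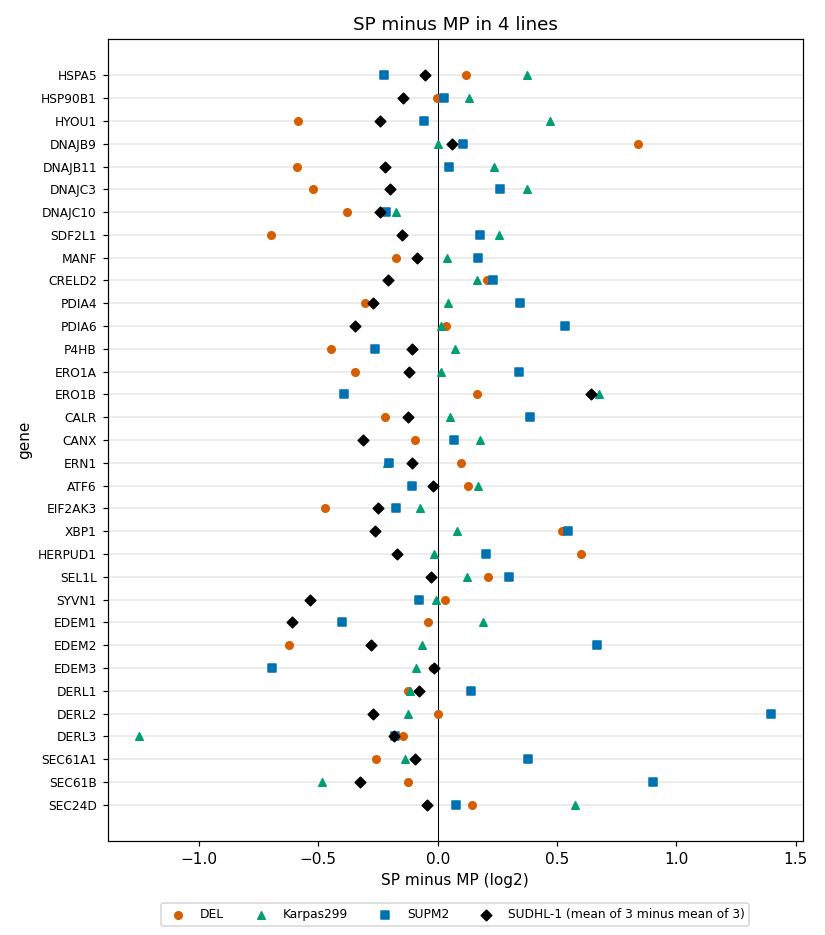
Each row is a gene and each symbol the SP level minus the MP level in a line (log2), a single pair of arrays in DEL, Karpas299 and SUPM2 and means of 3 arrays in SUDHL-1. The SUDHL-1 symbols are left of 0 for 31 of 33 genes, and those of Karpas299 and SUPM2 are left of 0 for 13 and 12.

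Whether the SUDHL-1 difference departs from that of the other lines was tested as an interaction on all 12 arrays. With limma, 0 of 33 members passed at an adjusted p under 0.05 (0% of all genes) and 0 at an unadjusted p under 0.05 (3.59%, or 661 genes). The smallest p were those of PDIA6, with a difference of -0.54 (SE 0.25, unadjusted p = 0.060), and XBP1, with -0.65 (SE 0.33, unadjusted p = 0.076), both with an adjusted p of 1.00.

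In the other secretory pathway lists, limma also called 0 genes between SP and MP of SUDHL-1. Lower in SP were 15 of 19 translocon and signal peptide genes (median -0.09), 12 of 17 N-glycan genes (-0.06), 14 of 16 further degradation genes (-0.15), 7 of 12 COPII genes (-0.06) and 9 of 18 other folding enzymes (0.02). Of the ATF4 arm 9 of 13 were higher in SP (median 0.05), of the other sensors 8 of 13 (0.02) and of the cytosolic heat shock genes 4 of 13 (-0.03). The genes of smallest p were TMX3 at -0.59 and TXNDC11 at 0.41 among folding enzymes, SRPRB at -0.33 and SEC61A2 at 0.30 among translocon genes, and MAGT1 at -0.52 and DPAGT1 at 0.21 among N-glycan genes. In the same way they were ERLEC1 at -0.28 and RNF139 at 0.32 for degradation, SEC24C at -0.44 and SEC24B at 0.10 for COPII, WFS1 at -0.23 and CREB3L4 at 0.46 for the other sensors, and VLDLR at -0.18 and TRIB3 at 0.31 for the ATF4 arm, each with a limma adjusted p of 1.00.

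The 10 members whose promoter window held an element were described beside the 20 whose window did not. SP was below MP in SUDHL-1 for 9 of the 10 and for 19 of the 20 (50.1% of all genes). SUPM2 had the lowest mean of DEL, Karpas299 and SUPM2 for 6 of the 10 and for 12 of the 20 (28.9% of all genes), and the highest for 1 and 4 (44.1%). At a limma adjusted p under 0.05 on the deposited scale, SUDHL-1 was called higher for 2 and lower for 6 of the 10. Of the 20, 4 were called higher and 10 lower, where 16.4% of all genes were called higher and 49.2% lower. No test was made of these counts.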

How the data were processed

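RNA from SP and MP cells was amplified with a whole-transcript kit for small amounts (NuGEN Ovation Pico), biotin-labelled and hybridised to Affymetrix arrays, per the labels' protocols. The values are log2 signals deposited by the authors, and RMA is the tool, without a version, per the submitters' processing notes. RMA corrects background, quantile normalizes and summarises probes. The sources used here do not say if the 12 arrays were normalized jointly. All 12 columns were used and 0 left out. Arrays carry no depth, so the number of arrays limits the precision.

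By the platform's annotation, 19460 of 33297 probe sets had 1 gene symbol, 1754 several and 12083 none. Of the 19460, 19429 matched RefSeq (GRCh38.p14) by Entrez identifier, and 0 symbols changed. For 769 genes with several probe sets the brightest stood for the gene, leaving 18417.

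Fits used limma 3.58.1 (lmFit, eBayes; R 4.3.3), two-sided, with Benjamini-Hochberg adjustment over all 18417 genes and a threshold of 0.05. SUDHL-1 SP minus MP used its 6 arrays (4 residual degrees of freedom). The 4-line test used 1 SP minus MP difference per line (3). The F test over DEL, Karpas299 and SUPM2 used 6 arrays with population as a term (2). SUDHL-1 against the other lines used all 12 arrays with line and population (7), and the interaction likewise (6). The fits were tested on simulated data. SUDHL-1 replicate numbers did not pair the arrays: deviations of same-numbered SP and MP arrays correlated at -0.0037, -0.077 and -0.13.

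Array values are given for members past the threshold, up to 12 per comparison by smallest p, for the 3 of smallest p in each direction where under 5 passed, and for HSPA5, HSP90B1, XBP1, ATF6, ERN1 and EIF2AK3. Other lists name up to 3 genes past the threshold or, between SP and MP, 1 in each direction. The members and lists were chosen with earlier results of these data known. Alternatives were a filter on the dimmest 25% of genes, renewed quantile normalization, centring, averaged probe sets, robust trended variance, a replicate block, all arrays in a fit, and leaving out arrays or lines. Protein sequences were not used here.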

Additional observations from a re-analysis of the deposited data

Results flagged for a closer look

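Some member values lay far from the others of their group by Dixon's criterion, which chance meets in about 1 in 20 groups. Over the 6 SUDHL-1 arrays 4 of 33 members had such an array, against 7.22% of all genes, and over the 4 line differences 5 of 33 had such a line, against 5.96%. HSP90B1 stood at 12.59 on MP array 3, the next array reading 12.27. DNAJB11 stood at 10.73 on SP array 3, below 11.14. DERL1 stood at 8.09 on the same SP array 3, below 8.53. SDF2L1 stood at 7.0 on MP array 2, above 6.58. DNAJB9 was higher in SP by 0.84 in DEL, with 0.10 next. DERL2 was higher in SP by 1.40 in SUPM2, with 0.0023 next. EDEM3 differed by -0.69 in SUPM2, with -0.09 next. DERL3 differed by -1.25 in Karpas299, with -0.18 next. CRELD2 differed by -0.21 in SUDHL-1, while the other lines lay from 0.17 to 0.23. The line differences of DEL, Karpas299 and SUPM2 rest on 1 array each way.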

How the results depend on the processing

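Between SP and MP, limma called 0 members at an adjusted p under 0.05 in SUDHL-1, over the 4 lines and in the interaction, under each alternative that was run. The SUDHL-1 median of the members stayed between -0.22 and -0.11 with an array left out and was -0.12 after quantile normalization. The replicate block, which numbers do not bear out as a pairing, gave 0 calls and a median of -0.17, with 608 genes at an unadjusted p under 0.05. Over DEL, Karpas299 and SUPM2, members called numbered 0 to 2 with an array left out, 3 after quantile normalization (PDIA4, ERO1B and SEC24D), 3 with robust trended variance and 6 with all 12 arrays in the fit, against 4 as reported; genes called over all numbered 2459 with 12 arrays against 1382. Leaving out an array there leaves 1 residual degree of freedom and a line with 1 array, assumed to vary like the others. SUDHL-1 against the other lines is limited by scaling, as its split of higher and lower calls shows. With an array or line left out its calls numbered 19 to 25 of 33, against 23. Lost were SDF2L1 (without SP array 1, MP array 1, MP array 3, DEL or Karpas299), CALR (DEL or Karpas299), ERO1A and SYVN1 (DEL or SUPM2), DNAJB9 (Karpas299), and HSP90B1, ERO1B and DERL1 (SUPM2); 15 kept their call in all of these settings.

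Signs turned only in members that were not called under the alternative, and the cause was not tested. After quantile normalization these were, for SUDHL-1 SP minus MP, ATF6 0.0071 and EDEM3 5.04e-05, over the 4 lines HSP90B1 -0.011, and for SUDHL-1 against the other lines SEC24D 0.026. After centring they were, over the 4 lines, HSP90B1 -0.010, and for SUDHL-1 against the other lines, HYOU1 0.29, SDF2L1 0.046, CALR 0.10, CANX 0.20, SEL1L 0.25, DERL1 0.081 and SEC24D 0.17. With all 12 arrays in the 4-line fit they were HSP90B1 -0.048, CRELD2 -0.0033, PDIA6 -0.076 and CALR -0.026. With 1 array left out, 13 members turned in SUDHL-1 SP minus MP, ranging as HSPA5 -0.21 to 0.19, HYOU1 -0.57 to 0.039, DNAJB9 -0.13 to 0.25, DNAJC10 -0.48 to 0.060, SDF2L1 -0.28 to 0.020, P4HB -0.26 to 0.12, ERO1A -0.25 to 0.064, ATF6 -0.11 to 0.11, SEL1L -0.33 to 0.46, EDEM3 -0.29 to 0.23, DERL1 -0.19 to 0.14, DERL3 -0.32 to 0.0011 and SEC24D -0.20 to 0.12. With 1 line or array left out, 18 turned over the 4 lines: HSPA5 -0.054 to 0.15, HSP90B1 -0.041 to 0.052, HYOU1 -0.29 to 0.058, DNAJB11 -0.25 to 0.021, DNAJC3 -0.15 to 0.15, SDF2L1 -0.22 to 0.096, MANF -0.074 to 0.039, PDIA4 -0.18 to 0.040, PDIA6 -0.099 to 0.19, ERO1A -0.15 to 0.078, CALR -0.098 to 0.10, CANX -0.11 to 0.051, ATF6 -0.00068 to 0.090, EDEM2 -0.32 to 0.11, DERL1 -0.10 to 0.0095, DERL2 -0.13 to 0.42, SEC61A1 -0.16 to 0.049 and SEC61B -0.31 to 0.15. In SUDHL-1 against the other lines 6 turned: HYOU1 -0.31 to 0.028, PDIA4 -0.26 to 0.43, PDIA6 -0.11 to 0.52, EIF2AK3 -0.0057 to 0.22, EDEM3 -0.19 to 0.35 and DERL3 -0.15 to 0.24.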
